A study of Mus musculus with 11 samples.

Results

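Goblet cell mucus and secretory genes were followed by symbol through 11 RNA-seq libraries of mouse intestine. The list holds 9 genes, namely Muc2, Fcgbp, Zg16, Clca1, Tff3, Spink4, Agr2, Spdef and Retnlb, and 8 of them had a row among the 24294 symbols with values; Retnlb was not analysed here. All 8 passed the filter on low values, which asked for 1 FPKM or more in 3 or more libraries and kept 10764 genes. FPKM is the number of fragments divided by the length of the transcript and by the size of the library, so levels can be set side by side between genes.

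The libraries were labelled HLJDD (n = 4), HFD (n = 4) and ND (n = 3). HLJDD has the initials of Huang Lian Jiedu Decoction, a herbal preparation that the study tests in obese mice. The labels do not spell out HFD and ND, give no strain, age or treatment time, and do not say which diet the HLJDD mice ate. The design text names the small intestine but not the stretch of it. Nothing says that each library came from a separate mouse, so the spread behind each p-value is that between libraries and may be technical.

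Goblet cells are secretory cells of the intestinal epithelium that fill their apical side with mucin granules. Muc2, the gel-forming mucin of the intestine, polymerises through disulfide bonds and swells on release into the mucus that keeps bacteria away from the epithelium. Fcgbp and Clca1 are large proteins released with it, Zg16 is a lectin that binds Gram-positive bacteria, and Tff3 is a trefoil peptide of the same granules. Agr2 is a protein disulfide isomerase of the endoplasmic reticulum that mucin assembly needs, and Spdef is a transcription factor that drives goblet cell maturation. In the mouse, mucus in the small intestine is loose, and goblet cells become more frequent toward the ileum and colon.

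The libraries held 30100481 to 37940645 reads in genes. Transcripts of the mitochondrial genome took 40.7% of the reads in HLJDD 2, 32.4% in HFD 1 and 10.4% to 19.3% in the other libraries, so the members' calls that change without these 2 libraries, and the counts of the goblet cell and cell type lists without them, are given beside the results. The epithelial genes Vil1, Epcam and Cdh17 were between 174 and 945 FPKM in every library, but levels were not alike in all groups. Cdh17 was at 182 to 427 FPKM in HLJDD and 174 to 359 FPKM in HFD, below its 449 to 499 FPKM in ND. Krt20, another epithelial gene, was at 1285 to 1909 FPKM in HLJDD, 1240 to 1962 FPKM in HFD and 1067 to 1242 FPKM in ND. The genes that mark stretches of intestine differed between ND and the other groups. Fabp6, the ileal bile acid binding protein, was at 0.212 to 2.27 FPKM in the HLJDD libraries and 1.26 to 4.31 FPKM in the HFD libraries, against 9821, 6702 and 397 FPKM in ND 1, ND 2 and ND 3. The summed level of 9 proximal small intestine markers was 8878 to 15756 FPKM in HLJDD, 11690.3 to 15489 FPKM in HFD and 516 to 4643 FPKM in ND. Most of that sum was Fabp1, at 8372 to 14691 FPKM in HLJDD, 11349 to 14642 FPKM in HFD and 476 to 4390 FPKM in ND. Tested gene by gene, 4 of the 7 proximal markers that passed the filter rose in each comparison with ND, and 1, Slc40a1, fell. The group and the stretch of intestine therefore cannot be told apart in any comparison with ND, and the part of the stretch in the results below was not tested. Bulk RNA also cannot tell fewer goblet cells from less RNA per goblet cell.

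Muc2 and Fcgbp, both of the mucus gel and both on chromosome 7, were not tested against each other. Their start regions are shown because, as deposited, Fcgbp passed in both comparisons with ND below and Muc2 in neither. Each runs from 250 bases before to 50 bases after the annotated start in RefSeq on build GRCm38.p6 (mm10), on the plus strand. The capitals mark GATAA, the core bound by GATA factors, and TATAA, the core of the TATA box, searched on both strands. The Muc2 sequence is chr7:141690090-141690389 and the Fcgbp sequence is chr7:28070986-28071285.
Muc2: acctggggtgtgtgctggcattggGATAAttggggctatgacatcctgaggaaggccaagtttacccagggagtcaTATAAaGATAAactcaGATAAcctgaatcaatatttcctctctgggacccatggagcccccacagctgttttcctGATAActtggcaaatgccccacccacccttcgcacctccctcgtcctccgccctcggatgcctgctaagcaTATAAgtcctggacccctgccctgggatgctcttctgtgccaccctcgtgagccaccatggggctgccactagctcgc
Fcgbp: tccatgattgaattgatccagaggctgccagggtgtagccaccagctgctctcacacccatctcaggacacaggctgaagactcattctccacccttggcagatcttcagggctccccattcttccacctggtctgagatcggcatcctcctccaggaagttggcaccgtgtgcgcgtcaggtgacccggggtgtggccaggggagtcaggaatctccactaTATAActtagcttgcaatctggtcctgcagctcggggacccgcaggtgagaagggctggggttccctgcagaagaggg
Muc2 had 4 matches to GATAA, whose first bases lay at -226, -168, -158 and -99 from the start. Of 32851 mouse start regions of the same length, 25.4% held at least 1 match and 0.204% held 4 or more. Fcgbp, Agr2 and Spdef, the other members with a sequence in the table, had 0 matches. The Spdef sequence, chr17:27728902-27729201 on the minus strand, lies inside the gene as placed below (27714446-27731003). Its matches therefore describe an internal start and not the outer end of the gene. A TATAA stood with its first base at -28 in Muc2 and Fcgbp. In Spdef the letters were TTATAA, with TATAA from -27 on the strand of the gene and a reverse-strand match at -28. No TATAA was found in the Agr2 sequence. Of all start regions, 3.86% had a TATAA between -35 and -20. CAGCTG, an E-box form, occurred once in the Muc2 and once in the Fcgbp sequence and in 16.3% of all start regions. GGATG, searched for SPDEF, had 3 matches in Muc2, 1 in Fcgbp, 1 in Spdef and 0 in Agr2, and occurred in 43.2% of all start regions. TTTATGG, searched for CDX factors, had 1 match in Agr2 and 0 in Muc2, Fcgbp and Spdef, and occurred in 2.75%. These matches describe letters only, binding was not measured, and the part of these motifs in the results below was not tested. Sequences were matched for 4 of the 8 members. Gata4, a GATA factor of the proximal small intestine, was at 26.4 to 36.6 FPKM in HLJDD, 25.9 to 35.7 FPKM in HFD and 9.75, 15.5 and 24.7 FPKM in ND 1, ND 2 and ND 3.

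**Figure D1:**
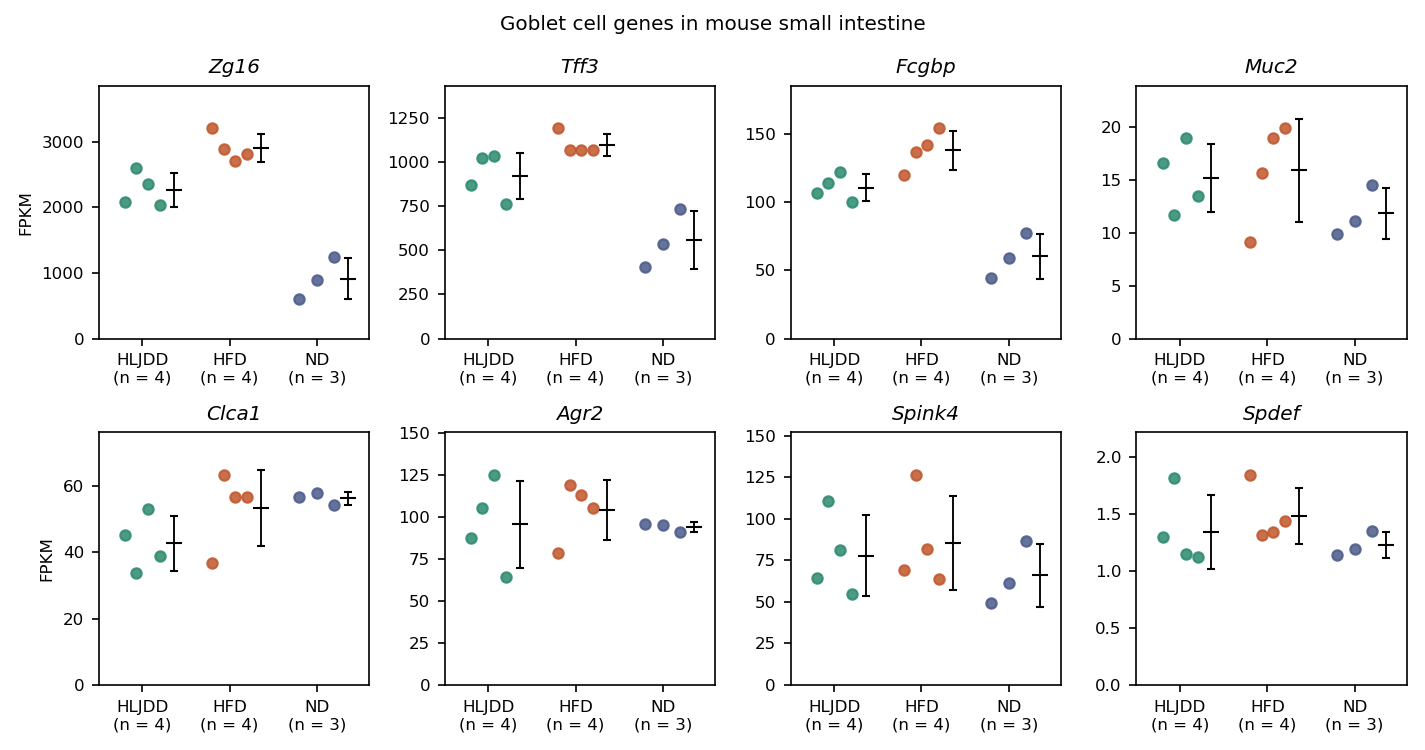
Level of each of the 8 members in FPKM (linear axis from 0 in each panel) in the HLJDD, HFD and ND libraries; points are libraries, bars are the mean and the SD. Zg16, Tff3 and Fcgbp of all HLJDD and HFD libraries lie above the 3 ND libraries, and the other 5 members overlap with ND in at least 1 of the 2 groups.

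Zg16 (chr7:127050156-127052675), the bacteria-binding lectin, was the most abundant member in every library. Its level was 2078, 2591, 2360.1 and 2038 FPKM in HLJDD 1 to 4, 3205, 2882, 2709 and 2809 FPKM in HFD 1 to 4, and 606, 890.1 and 1236 FPKM in ND 1 to 3. Every HLJDD and every HFD library lay above every ND library, and every HFD library lay above every HLJDD library. Means were 2267 ± 259 FPKM in HLJDD, 2901 ± 215 FPKM in HFD and 910.5 ± 315 FPKM in ND (SD, n = 4, 4 and 3). Against ND, Zg16 rose by 1.37 in HLJDD (SE 0.217, 95% interval 0.89 to 1.84, adjusted p = 0.00233) and by 1.73 in HFD (SE 0.217, 1.25 to 2.20, adjusted p = 0.000527). These changes are differences of group means of log2(FPKM + 1), tested by limma with Benjamini-Hochberg adjustment over all 10764 genes and a threshold of 0.05. Both comparisons use the same ND libraries, so they are not independent of each other. Both calls were kept in 16 of 16 other ways of processing.

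Fcgbp (chr7:28071236-28120864), a repetitive protein of the mucus gel, had the same order of groups at a lower level. It was at 107, 114, 122 and 100.2 FPKM in HLJDD 1 to 4, at 119.9, 137, 142 and 154 FPKM in HFD 1 to 4, and at 44.5, 59.0 and 77.1 FPKM in ND 1 to 3. All HLJDD and HFD libraries stood above all ND libraries, while HLJDD and HFD overlapped through HLJDD 3 and HFD 1. It rose by 0.90 in HLJDD against ND (SE 0.178, 95% interval 0.51 to 1.29, adjusted p = 0.00748) and by 1.21 in HFD against ND (SE 0.178, 0.83 to 1.60, adjusted p = 0.00126). Both calls held in 16 of 16 alternatives. A pseudogene without a row, Gm21925, overlaps the gene in RefSeq. Whether its reads were counted for Fcgbp is not known, because the annotation and strand setting behind the values are not given.

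Tff3 (chr17:31125306-31129611), the trefoil peptide, was the second most abundant member. It was at 871, 1024, 1033 and 762 FPKM in HLJDD 1 to 4, at 1193, 1068, 1069 and 1066 FPKM in HFD 1 to 4, and at 407, 535 and 732 FPKM in ND 1 to 3. The 3 groups did not overlap, with HFD highest and ND lowest. Against ND, Tff3 rose by 0.76 in HLJDD (SE 0.198, 95% interval 0.32 to 1.19, adjusted p = 0.0285) and by 1.02 in HFD (SE 0.198, 0.59 to 1.45, adjusted p = 0.00569). The HFD call held in 16 of 16 alternatives, the HLJDD call in 9 of 16. Adjusted p for HLJDD against ND was 0.15 without ND 1, 0.112 without ND 2, 0.0596 without HLJDD 1 and 0.0536 without HLJDD 3, over a range of 0.00963 to 0.15. It was also above the threshold with values scaled to equal sums (0.0743), with no filter on low values (0.0726) and with only the HLJDD and ND libraries in the fit (0.0574).

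Within ND, the levels of these 3 genes were in the order ND 3, ND 2, ND 1, and so were Muc2, Spink4 and Spdef. Fabp6 had the opposite order in the same libraries, and so did Agr2, at 96.1, 95.6 and 91.0 FPKM in ND 1, ND 2 and ND 3. Clca1 was also lowest in ND 3, at 56.6, 57.9 and 54.2 FPKM in ND 1, ND 2 and ND 3. The proximal marker Fabp1 was at 476, 1940.2 and 4390.3 FPKM in ND 1, ND 2 and ND 3. For Zg16, Tff3 and Fcgbp, the plot of levels against Fabp6 places ND 3, the ND library with the least Fabp6, nearest to the other groups. With 3 libraries this is a description without a test.

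**Figure D2:**
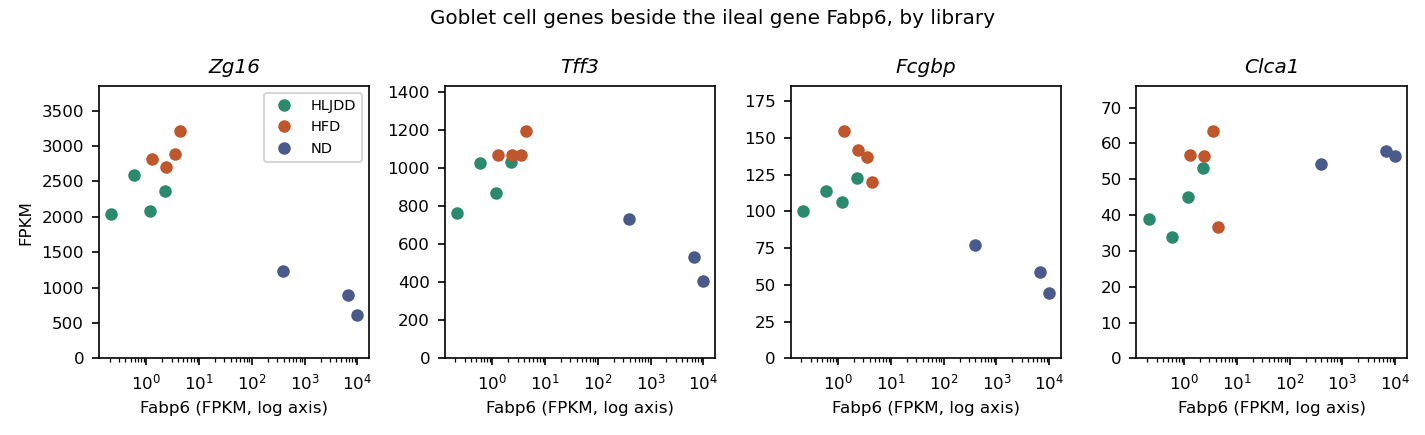
Levels of Zg16, Tff3, Fcgbp and Clca1 (FPKM, linear axis) against the level of Fabp6 (FPKM, log axis) in each HLJDD, HFD and ND library; each point is a library. Zg16, Tff3 and Fcgbp are lowest in ND 1, which has the most Fabp6 (9821 FPKM), and within ND highest in ND 3 (397 FPKM), while Clca1 stays between 54.2 and 57.9 FPKM in ND.

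Muc2 (chr7:141690340-141754691), the mucin itself, had a lower level per length than every other member but Spdef. It was at 16.5, 11.7, 19.0 and 13.4 FPKM in HLJDD 1 to 4, at 9.14, 15.6, 18.9 and 19.9 FPKM in HFD 1 to 4, and at 9.88, 11.1 and 14.5 FPKM in ND 1 to 3. The groups overlapped, and HFD 1 had the lowest value of all libraries. The length behind the Muc2 values was 13.9 kb, the longest of the members, so these levels still rest on 4048 to 10296 reads. As deposited, Muc2 did not pass the test in HLJDD against ND (log2 difference 0.33, 95% interval -0.21 to 0.87, adjusted p = 0.405) or in HFD against ND (0.36, -0.18 to 0.90, adjusted p = 0.295). In HFD against ND it passed with a positive difference in 3 of 16 alternatives. The difference was 0.58 after median-ratio scaling (0.19 to 0.97, adjusted p = 0.0348), 0.67 with limma-voom on recovered reads (adjusted p = 0.0409) and 0.59 without HFD 1 and HLJDD 2 (adjusted p = 0.0247). Without HFD 1 alone the adjusted p was 0.073.

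Clca1 (chr3:145004537-145032776), a secreted metalloprotease of the mucus, did not have the pattern of Zg16. It was at 45.0, 33.8, 53.1 and 38.9 FPKM in HLJDD 1 to 4, at 36.6, 63.4, 56.5 and 56.7 FPKM in HFD 1 to 4, and at 56.6, 57.9 and 54.2 FPKM in ND 1 to 3. Every HLJDD library lay below every ND library, and the HFD libraries spanned both. The log2 difference was -0.41 in HLJDD against ND (95% interval -0.84 to 0.02, adjusted p = 0.197) and -0.10 in HFD against ND (-0.53 to 0.33, adjusted p = 0.71), so neither passed. After median-ratio scaling the HLJDD libraries, at 38.4 to 46.3 scaled FPKM, also lay below all HFD libraries, at 48.0 to 62.8. The ND libraries were then at 50.6 to 50.7 scaled FPKM, and HFD against ND became 0.14 (adjusted p = 0.347).

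Spink4 (chr4:40920056-40931395), a small secreted peptide of the Kazal inhibitor type, varied within every group. It was at 64.1, 110.4, 81.0 and 55.0 FPKM in HLJDD 1 to 4, at 69.3, 127, 82.1 and 63.6 FPKM in HFD 1 to 4, and at 49.5, 61.4 and 86.7 FPKM in ND 1 to 3. The groups overlapped. Its log2 difference was 0.22 in HLJDD against ND (95% interval -0.40 to 0.84, adjusted p = 0.636) and 0.35 in HFD against ND (-0.27 to 0.97, adjusted p = 0.367). Those intervals still allow changes near the size seen for Tff3.

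Agr2 (chr12:35992925-36004081), the isomerase that mucin folding needs, was near the same level in all groups as deposited. It was at 87.7, 106, 125 and 64.2 FPKM in HLJDD 1 to 4, at 78.5, 119, 113 and 106 FPKM in HFD 1 to 4, and at 96.1, 95.6 and 91.0 FPKM in ND 1 to 3. The ND libraries lay inside the range of both other groups. The log2 difference was -0.02 in HLJDD against ND (95% interval -0.49 to 0.45, adjusted p = 0.963) and 0.12 in HFD against ND (-0.34 to 0.59, adjusted p = 0.680). In HLJDD against ND the sign turned after scaling, to 0.15.

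Spdef (chr17:27714446-27731003), the only transcription factor of the list, had the lowest level of the members, with 138 to 202 reads per library. It was at 1.29, 1.82, 1.15 and 1.12 FPKM in HLJDD 1 to 4, at 1.84, 1.32, 1.34 and 1.43 FPKM in HFD 1 to 4, and at 1.14, 1.19 and 1.35 FPKM in ND 1 to 3. The highest Spdef values of their groups were in HLJDD 2 and HFD 1, the libraries with the largest mitochondrial share. The log2 difference was 0.07 in HLJDD against ND (95% interval -0.23 to 0.36, adjusted p = 0.776) and 0.15 in HFD against ND (-0.14 to 0.45, adjusted p = 0.406), and neither passed. At this low level the added constant of 1 FPKM also shrinks any change.

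Counted together, 3 of 8 members rose and 0 fell in HLJDD against ND, where 4.1% of all genes tested rose and 7.79% fell. In HFD against ND 3 of 8 rose and 0 fell, where 5.06% of all genes rose and 11.5% fell. In both comparisons the risen members were Zg16, Fcgbp and Tff3. The median log2 difference of the members was 0.28 in HLJDD against ND and 0.36 in HFD against ND, while the median of all genes was -0.13 and -0.205. After median-ratio scaling, which brings the medians of all genes to 0.004 and -0.011, the members' medians were 0.43 and 0.59. With that scaling 3 of 8 rose in HLJDD against ND, where 9.39% of all genes rose and 9.88% fell, and 4 of 8 in HFD against ND, where 12.6% rose and 12.5% fell, Muc2 being the addition. Groups did not overlap for 3 members with HLJDD higher than ND (8.3% of all genes) and for Clca1 with HLJDD lower (21.3%). For HFD higher than ND there were 3 such members (9.57%), and 5 after scaling with Agr2 and Spdef added (18.2%), while for HLJDD higher than ND there were 3 after scaling (18%) and Clca1 stayed lower (18.9%).

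**Figure D3:**
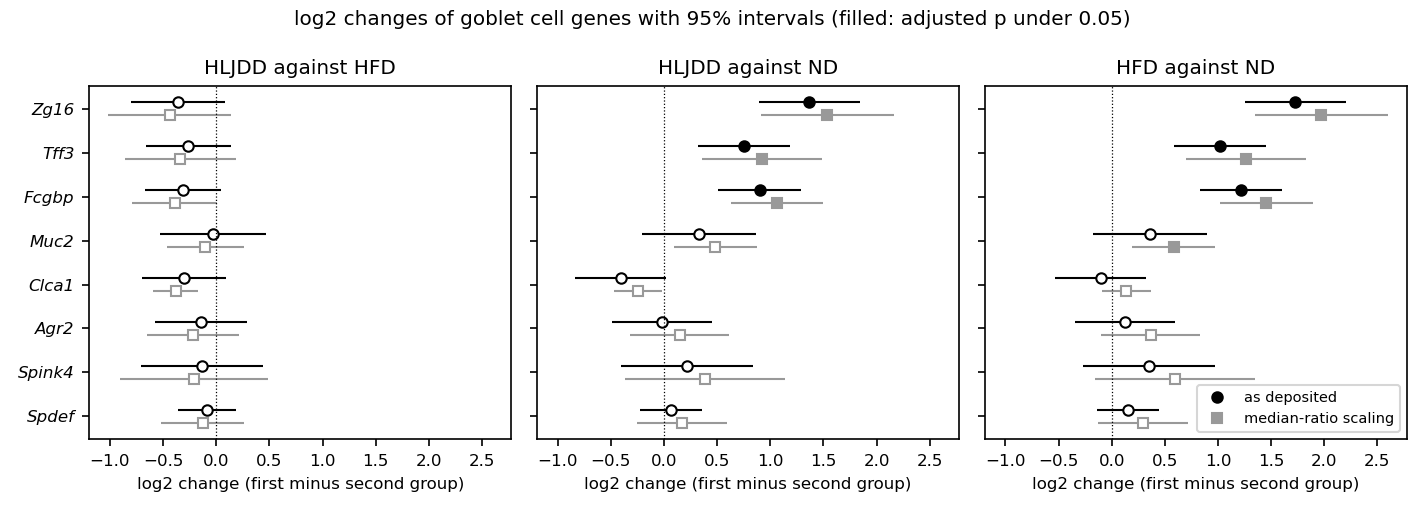
Log2 difference of each of the 8 members with its 95% interval in HLJDD against ND, HFD against ND and HLJDD against HFD, from values as deposited and after median-ratio scaling; filled points passed adjusted p under 0.05. Zg16, Fcgbp and Tff3 are filled in both comparisons with ND, Muc2 is filled only in HFD against ND after scaling, and 0 points are filled in HLJDD against HFD.

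HLJDD and HFD were compared directly in the same fit, and 0 of 8 members passed, as did 0% of all genes with limma and 0 genes with limma-voom. At an unadjusted p under 0.05, 186 of 10764 genes (1.73%) differed, and none of the members was among them. All 8 members had a negative log2 difference as deposited, between -0.36 for Zg16 and -0.03 for Muc2. For Zg16 the 95% interval was -0.80 to 0.08 (unadjusted p = 0.0988, adjusted p = 0.999), and for Fcgbp the difference was -0.31 (-0.67 to 0.04, unadjusted p = 0.0803, adjusted p = 0.999). Tff3 differed by -0.26 (-0.66 to 0.14) and Clca1 by -0.30 (-0.70 to 0.09). Zg16 and Tff3 did not overlap between the groups, with every HLJDD library lower, as for 0.548% of all genes. That separation was lost after median-ratio scaling, because HLJDD 2 then stood at 3415 scaled FPKM for Zg16.

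After scaling, Clca1 was the member with the smallest p in HLJDD against HFD. Its log2 difference was -0.38 (95% interval -0.59 to -0.17, unadjusted p = 0.00235), and the adjusted p of 0.834 did not pass. Groups that did not overlap with HLJDD lower made up 1.66% of all genes with this scaling. Agr2 differed by -0.14 as deposited (-0.58 to 0.29), Spink4 by -0.13 (-0.71 to 0.44), Spdef by -0.09 (-0.36 to 0.18) and Muc2 by -0.03 (-0.53 to 0.47). These intervals do not show that the groups were alike.

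Because Zg16, Tff3 and Fcgbp moved and the others did not pass, the makeup of the goblet transcripts was also described. The summed level of the 8 members was 3073 to 3992 FPKM in HLJDD, 4192 to 4713 FPKM in HFD and 1270.1 to 2293 FPKM in ND. Zg16 made up 62.2% to 66.3% of that sum in HLJDD, 64.6% to 68.0% in HFD and 47.7% to 53.9% in ND. The share of Tff3 went the other way, with 24.8% to 27.2% in HLJDD, 24.2% to 25.5% in HFD and 31.3% to 32.0% in ND. The other 6 members made up 8.88% to 10.6% in HLJDD, 6.69% to 10.5% in HFD and 14.2% to 20.3% in ND. Shares of a sum are tied to each other, so a higher Zg16 share lowers the rest.

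Ratios to Muc2 do not depend on library scaling. Zg16 was 125 to 222 times Muc2 in HLJDD, 141 to 351 times in HFD and 61.3 to 85.3 times in ND. Fcgbp was 6.44 to 9.73 times Muc2 in HLJDD, 7.49 to 13.1 times in HFD and 4.50 to 5.33 times in ND. The ND libraries lay below all others for both ratios. Tff3 was 52.7 to 87.6 times Muc2 in HLJDD, 53.7 to 131 times in HFD and 41.2 to 50.6 times in ND, with ND again below the others. Clca1 had the reverse order against ND in HLJDD, at 2.72 to 2.89 times Muc2, against 3.74 to 5.73 times in ND, and HFD spanned 2.85 to 4.06 times. For Agr2, Spink4 and Spdef the ratios overlapped between all groups. The highest Zg16, Tff3 and Fcgbp ratios of their groups came from HFD 1 and HLJDD 2, the mitochondria-rich libraries, and the part of that share in the ratios was not tested.

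**Figure D4:**
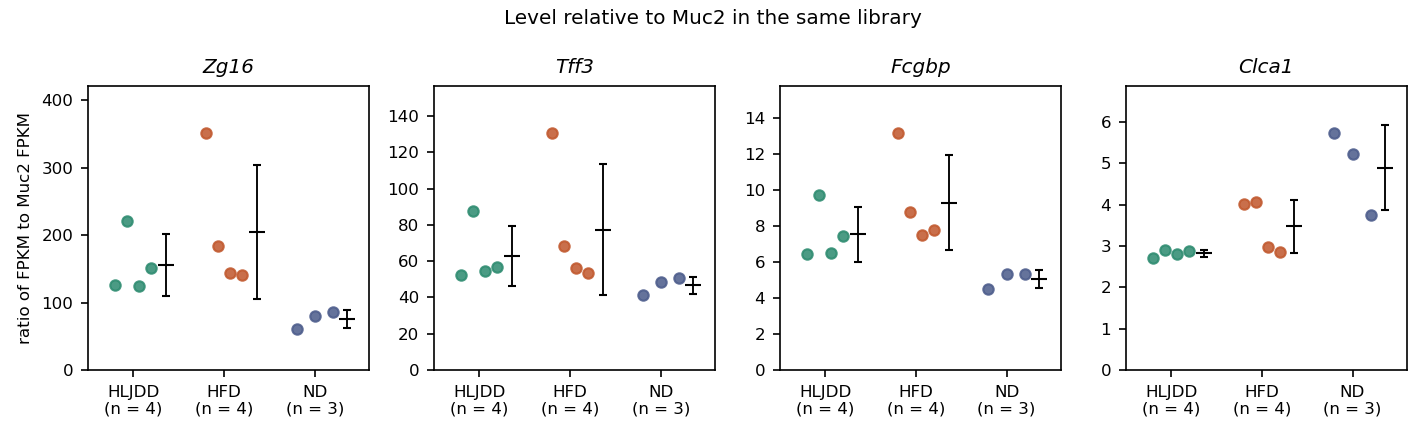
Ratio of the FPKM of Zg16, Tff3, Fcgbp and Clca1 to that of Muc2 in each HLJDD, HFD and ND library; points are libraries, bars are the mean and the SD. The ND libraries are lowest for Zg16 (61.3 to 85.3), Tff3 (41.2 to 50.6) and Fcgbp (4.50 to 5.33), and for Clca1 they lie above HLJDD (3.74 to 5.73 against 2.72 to 2.89).

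Within groups, the members did not vary as a single block. The deviations of scaled log2 values from the group means, over 11 libraries, had a Pearson r of 0.98 between Zg16 and Tff3, 0.93 between Zg16 and Fcgbp and 0.92 between Tff3 and Fcgbp. Muc2 had an r of 0.10 with Zg16 and 0.53 with Clca1, and Clca1 had an r of -0.17 with Zg16 and -0.32 with Spdef. Over all 28 pairs r ran from -0.32 to 0.98 with a median of 0.49, and 24 pairs were above 0. These values share the libraries and their scaling, and they are given as a description. Scaled Zg16 was at 4197 in HFD 1, against 2705 to 2858 in the other HFD libraries. It was at 3415 in HLJDD 2, against 1922 to 2055 in the other HLJDD libraries. The part of these mitochondria-rich libraries in the r values was not tested. HLJDD 2 had the highest mean deviation of the members, 0.46, and ND 3 came next with 0.30, while HLJDD 4 and ND 1 were lowest at -0.27 and -0.25. The genes whose deviations were most like the members' mean among 10305 ranked were Crls1, H13, Rps12, Srrd, Tmem258, Mast2, Uba7, Smim6, Cox6b1 and Emg1, with r of 0.94 to 0.96. None of these 10 belongs to a goblet cell list used here.

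Other goblet cell genes moved in both directions. The summed level of the 26 listed was 306 to 988 FPKM in HLJDD, 328 to 742 FPKM in HFD and 1045 to 1313 FPKM in ND. It was thus highest in ND, where the summed level of the members was lowest. Sums follow the most abundant genes, which were Zg16 and Tff3 among the members, so this contrast does not describe the lists gene by gene. Of the 26 genes, 19 passed the filter. Set against ND, 3 rose and 1 fell in HLJDD (median log2 difference -0.01), and 4 rose and 2 fell in HFD (median 0.13). Of all genes, 4.1% rose and 7.79% fell in HLJDD, and 5.06% rose and 11.5% fell in HFD. After median-ratio scaling these shares were 9.39% and 9.88% in HLJDD and 12.6% and 12.5% in HFD. They are the shares to set beside the counts of all lists below. Klk1, a kallikrein protease, rose to 13.0 ± 1.33 FPKM in HLJDD, against 6.49 ± 0.515 FPKM in ND (log2 difference 0.90, adjusted p = 0.00646). Klk1 also rose in HFD, to 11.8 ± 2.84 FPKM (0.75, adjusted p = 0.0138), and lost this HFD call without ND 1 (0.06). Tspan8, a tetraspanin, fell to 101 ± 35.1 FPKM in HFD, against 379 ± 67.4 FPKM in ND (-1.97, adjusted p = 0.00733), and this call was kept when any single library was left out. Tspan13, another tetraspanin, rose to 101 ± 18.6 FPKM in HFD, against 59.8 ± 7.04 FPKM in ND (0.74, adjusted p = 0.0317), and lost the call without HFD 3, HFD 4, ND 1 or ND 2 (adjusted p 0.0653 to 0.125). Tspan13 also rose in HLJDD, to 108 ± 26.8 FPKM (0.81, adjusted p = 0.025). That call was lost without HLJDD 1, HLJDD 4, ND 1 or ND 2 (0.0698 to 0.112). Without ND 1 the number that rose in HFD against ND was 0, without ND 2 or HFD 3 it was 1, and without HFD 4 it was 2. It was 1 in HLJDD against ND without HLJDD 1, HLJDD 4, ND 1 or ND 2. The number that fell in HLJDD was 0 without HLJDD 4, ND 1 or ND 2, where Tspan8 lost its call (adjusted p 0.0634 to 0.113), 2 without HLJDD 2 or HLJDD 3 and 3 without ND 3, and in HFD it was 1 without HFD 1, HFD 3, ND 1 or ND 2. Without HFD 1 and HLJDD 2 together, 4 rose and 3 fell in HLJDD and 5 rose and 1 fell in HFD. Atoh1, the factor that commits cells to the secretory lineage, was at 1.42 to 2.48 FPKM over all libraries.

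The regulators of the secretory lineage included Notch ligands. In HLJDD against ND 0 of 13 kept genes rose and 3 fell, namely Dll4, Klf4 and Foxa1, and in HFD against ND these 3 fell and Dll1 rose. The median log2 difference was -0.24 in HLJDD and -0.11 in HFD against ND. After median-ratio scaling 1 rose and 3 fell in each. Dll4, a Notch ligand that endothelium also makes, was at 1.62 ± 0.379 FPKM in HLJDD and 1.60 ± 0.175 FPKM in HFD, against 4.53 ± 0.798 FPKM in ND (adjusted p = 0.00118 and 0.000904). Klf4, a factor of goblet cell differentiation in the colon, fell to 29.5 ± 2.89 FPKM in HLJDD and to 30.5 ± 2.59 FPKM in HFD, against 49.0 ± 6.27 FPKM in ND (adjusted p = 0.00665 and 0.00790). The Klf4 call in HFD was lost without ND 1 (0.0508). Foxa1, a forkhead factor, lost its HFD call without ND 1 (0.0673) or ND 2 (0.0607) and its HLJDD call without HLJDD 1, HLJDD 4, ND 1 or ND 2 (0.0627 to 0.175). Without HFD 1 and HLJDD 2 together, 1 regulator rose and 3 fell in HLJDD, and 1 rose and 4 fell in HFD. Dll1, a Notch ligand of secretory progenitors, rose in HFD to 6.49 ± 0.717 FPKM, against 4.21 ± 1.09 FPKM in ND, and its adjusted p of 0.0371 was lost without ND 1 (0.175), ND 2 (0.136), HFD 2 (0.0528), HFD 3 (0.08) or HFD 4 (0.0753).

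The enzymes that build O-glycans on mucins mostly did not pass. Of 23 kept genes 1 rose and 4 fell in HLJDD against ND, where 4.1% of all genes rose and 7.79% fell. In HFD against ND 1 rose and 8 fell, where 5.06% of all genes rose and 11.5% fell. Galnt7, a transferase of the GalNAc sugar that starts O-glycans, was at 9.09 ± 2.57 FPKM in HLJDD and 9.63 ± 2.46 FPKM in HFD, against 21.9 ± 1.97 FPKM in ND (adjusted p = 0.00486 and 0.00571). B3gnt7, a glycan-extending enzyme, was at 4.16 ± 1.44 FPKM in HLJDD and 3.39 ± 0.907 FPKM in HFD, against 9.23 ± 0.0964 FPKM in ND (adjusted p = 0.00998 and 0.00301). St3gal1, a sialyltransferase that caps core glycans, rose to 4.69 ± 2.40 FPKM in HLJDD and 5.50 ± 2.35 FPKM in HFD, against 0.831 ± 0.348 FPKM in ND (adjusted p = 0.0120 and 0.00528). The St3gal1 call in HLJDD was lost without ND 1 (0.0721) or ND 2 (0.0531). The number fallen was 4 in HFD without HFD 3, ND 1 or ND 2 and 5 without HFD 1, and it was 2 in HLJDD without ND 1 or ND 2 and 6 without ND 3; the number risen in HLJDD was 4 without HLJDD 2, 0 without ND 1 or ND 2 and 2 without ND 3, and in HFD it was 2 without ND 3. Without HFD 1 and HLJDD 2 together, 6 rose and 6 fell in HLJDD and 3 rose and 8 fell in HFD. After median-ratio scaling the list held 4 risen and 7 fallen genes in HLJDD and 5 risen and 8 fallen in HFD against ND.

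Genes of protein folding and export in the endoplasmic reticulum were mostly lower where they passed. In HLJDD against ND 1 of 25 kept genes rose and 4 fell (median log2 difference -0.49), where 4.1% of all genes rose and 7.79% fell. In HFD against ND 1 rose and 11 fell (median -0.67), where 5.06% of all genes rose and 11.5% fell. After median-ratio scaling 2 rose and 9 fell in HLJDD, and 2 rose and 14 fell in HFD. Dnajb9, a co-chaperone of the unfolded protein response, fell to 35.9 ± 6.28 FPKM in HLJDD and 45.6 ± 5.46 FPKM in HFD, against 96.9 ± 9.53 FPKM in ND (adjusted p = 0.000436 and 0.00153). Manf, a secreted stress protein of that compartment, was at 98.5 ± 22.4 FPKM in HLJDD and 89.5 ± 16.4 FPKM in HFD, against 172 ± 3.70 FPKM in ND (adjusted p = 0.0233 and 0.00988). Both Dnajb9 calls and the HFD call of Manf were kept with any single library left out, while the HLJDD call of Manf was lost without HLJDD 4 or any ND library (0.052 to 0.0891). Sec24d, a coat protein of export vesicles, rose in HLJDD to 58.0 ± 13.1 FPKM, against 28.8 ± 7.86 FPKM in ND (adjusted p = 0.0145), and lost the call without ND 1 (0.0882) or ND 2 (0.0587). The number fallen in HFD against ND was 2 without ND 1 or ND 2, 4 without ND 3 and 18 without HFD 1 and HLJDD 2 together. The HLJDD count was 1 without HLJDD 4 or any ND library, 2 without HLJDD 1, 6 without HLJDD 3 and 17 without HFD 1 and HLJDD 2. The risen gene of each comparison was lost without ND 1 or ND 2.

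Genes of mucus release, ion transport and unfolding had 0 rises and 4 falls of 19 kept in each comparison with ND, namely Mep1a, Slc4a4, Myd88 and Tgm2. Mep1a, the alpha subunit of the meprin proteases, was at 34.6 ± 19.9 FPKM in HLJDD and 31.2 ± 9.96 FPKM in HFD, against 312 ± 110.2 FPKM in ND (adjusted p = 0.000967 and 0.000754). Mep1b, the beta subunit, which cleaves Muc2 during mucus detachment in the mouse, was at 270 to 557 FPKM in HLJDD and 273 to 512 FPKM in HFD, against 642 to 737 FPKM in ND. Mep1a is also on the distal list used here, so its fall is not separate from the difference in stretch markers. The other 3 falls in HLJDD were lost without ND 1, ND 2 or HLJDD 4, and 2 falls were left without HLJDD 1 or ND 3, where Tgm2 (0.0854 and 0.131) and Myd88 (0.106 and 0.102) lost their calls. In HFD 2 falls were left without ND 1 or ND 2. Without HFD 1 and HLJDD 2 together, 6 fell in each comparison. Myd88, an adaptor of microbial receptors, no longer passed after scaling (adjusted p = 0.290 and 0.274). Muc13, a membrane mucin of enterocytes, fell to 523 ± 34.6 FPKM in HLJDD and 486 ± 64.8 FPKM in HFD, against 968 ± 212 FPKM in ND (adjusted p = 0.00880 and 0.00372), and it was the only called gene of 4 kept membrane mucins. The gastric and airway mucins Muc5ac, Muc5b and Muc6 and the trefoil gene Tff2 summed to at most 0.0694 FPKM in any library.

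The receptors and signals that act on goblet cells were also listed. Of 8 kept genes of type 2 and IL-22 signalling, 0 rose and 2 fell in HLJDD against ND and 1 rose and 2 fell in HFD against ND. After median-ratio scaling 2 rose and 2 fell in each, and without HFD 1 and HLJDD 2 together 1 rose and 2 fell in HLJDD and 2 rose and 3 fell in HFD. Without ND 3 the number risen was 2 in each, and without HLJDD 2 it was 1 in HLJDD. Socs3, a feedback inhibitor of cytokine signals, was at 10.9 ± 4.92 FPKM in HLJDD and 12.8 ± 3.82 FPKM in HFD, against 39.5 ± 8.13 FPKM in ND (adjusted p = 0.00336 and 0.00630). Stat3, the factor activated downstream of the IL-22 receptor, fell to 19.8 ± 4.88 FPKM in HLJDD and 16.5 ± 1.54 FPKM in HFD, against 31.3 ± 2.11 FPKM in ND (adjusted p = 0.0377 and 0.00850). The Stat3 call in HLJDD was lost without HLJDD 1, HLJDD 4 or any ND library (0.0547 to 0.151). Il10rb, a subunit of the IL-22 receptor, rose in HFD to 65.8 ± 2.31 FPKM, against 38.3 ± 5.94 FPKM in ND (adjusted p = 0.00360). In HLJDD it was at 52.8 ± 5.35 FPKM, without overlap with ND, and did not pass as deposited (adjusted p = 0.0519). After median-ratio scaling it passed there too (0.0104).

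**Figure D5:**
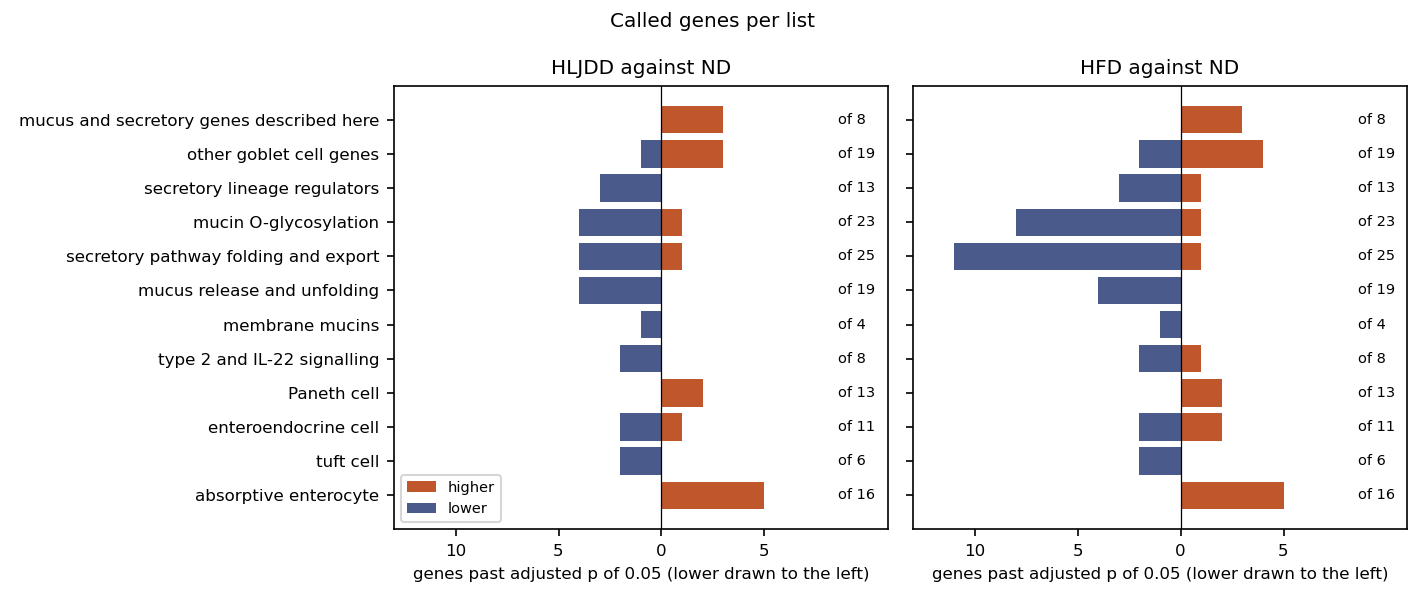
Number of genes called higher (right of 0) and lower (left of 0) in each gene list for HLJDD against ND and HFD against ND, adjusted p under 0.05. The mucus and secretory genes described here have 3 higher and 0 lower in both comparisons, and folding and export genes have 4 lower in HLJDD and 11 lower in HFD against ND; the number of genes tested stands at the right of each row.

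Markers of other cells moved beside the members. Among absorptive enterocyte genes 5 of 16 rose and 0 fell in each comparison with ND (6 and 1 in HLJDD and 8 and 1 in HFD after scaling, 3 risen in HLJDD without ND 1, 7 risen and 3 fallen in each without HFD 1 and HLJDD 2), and among distal small intestine genes 8 of 10 fell in HLJDD and 7 of 10 in HFD against ND. Proximal genes rose in 4 of 7 cases and fell in 1 in each comparison, the fallen gene being the iron exporter Slc40a1, and 2 rose in each without ND 1 or ND 2, as in HLJDD without HLJDD 4, while 6 rose in each without HFD 1 and HLJDD 2. Paneth cell genes rose in 2 of 13 cases in each comparison, namely Clps and Pnliprp2, which encode a lipase cofactor and a lipase. The median log2 difference of that list was -0.42 in HLJDD and 0.03 in HFD against ND. Defa22, an antimicrobial defensin with near-identical copies, was at 7.49 ± 5.68 FPKM in HLJDD and 12.1 ± 16.0 FPKM in HFD, against 43.1 ± 7.24 FPKM in ND (log2 difference -2.87 and -2.71, adjusted p = 0.0874 and 0.0830), and did not pass. Without HFD 2, 3 Paneth cell genes were called lower in HFD, 1 was lower in HLJDD without HLJDD 2, and without HFD 1 and HLJDD 2 there were 2 higher and 1 lower in HLJDD and 3 higher and 0 lower in HFD. The summed level of the Paneth list was 103 to 435 FPKM in HLJDD, 130.2 to 438 FPKM in HFD and 262 to 304 FPKM in ND. Ang4, an antimicrobial ribonuclease of Paneth and goblet cells, was at 0.974 to 7.65 FPKM in HLJDD, 1.58 to 10.1 FPKM in HFD and 6.08 to 16.2 FPKM in ND.

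The B and plasma cell list summed to 117 to 303 FPKM in HLJDD, 126 to 285 FPKM in HFD and 38.4 to 65.0 FPKM in ND, with 0 of 8 genes called in HLJDD and 2 of 8 in HFD against ND. Without HLJDD 2 the HLJDD count was 7 and without HLJDD 4 it was 1, and in HFD it was 7 without HFD 4 and 0 without any other single library. Without HFD 1 and HLJDD 2 together the counts were 7 in HLJDD and 4 in HFD. Crypt stem cell genes had 0 of 7 called in either comparison. Of the colon genes, Car1 and Hoxb13 were each at 0 in 10 of 11 libraries. Enteroendocrine genes had 1 rise and 2 falls of 11 in HLJDD and 2 rises and 2 falls in HFD. Falls were 0 without ND 1 or ND 2 in both comparisons, in HFD also without HFD 1 and in HLJDD also without HLJDD 4. They were 1 in HFD without HFD 3, 1 in HLJDD without HLJDD 1 or HLJDD 2 and 4 in HLJDD without HFD 1 and HLJDD 2. Rises were 0 in HLJDD without HLJDD 1, ND 1 or ND 2, where Gip lost its call (0.0541 to 0.103), and 1 in HFD without HFD 3, HFD 4 or any ND library. Tuft cell genes had 2 falls of 6 in each comparison, with 1 left in HLJDD without HLJDD 1, HLJDD 4, ND 1 or ND 2 and in HFD without ND 2. Smooth muscle genes had 0 calls of 9 in each comparison, but 2 falls in HLJDD without HLJDD 3, and 1 after scaling or without HFD 1 and HLJDD 2. Pancreatic acinar genes summed to 6.996 to 8.70 FPKM in HLJDD, 5.02 to 8.70 FPKM in HFD and 4.59 to 5.96 FPKM in ND, mostly from Cela1, while Pnlip was at most 0.0222 FPKM and Amy2a5 at most 0.0170 FPKM. In HLJDD against HFD 0 genes passed in any of these lists. The part of these cell types in the Zg16, Tff3 and Fcgbp results was not tested.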

How the data were processed

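RNA from the intestine was sequenced in 11 libraries, made with TRIzol extraction and a VAHTS Universal V6 kit, per the labels' protocols. Reads were processed with fastp, HISAT2, HTSeq and R 3.2.0 on mm10, per the submitters' processing notes. The sources used here give neither the annotation nor the strand setting. The authors deposited FPKM values for 24294 symbols, the same in the single tables and the series table (0 values differing). Reads were recovered from the steps between the FPKM values: in all 24294 symbols (100%) they were whole within 0.002 reads, and they may be understated where a gene's counts share a factor.

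Libraries were grouped by title. Values were tested as log2(FPKM + 1), a scale that understates changes of low genes, with limma 3.58.1 in R 4.3.3 (two-sided, variance trend, a single fit of 11 libraries, no covariate, Benjamini-Hochberg over the 10764 genes that had 1 FPKM or more in 3 or more libraries, threshold 0.05). The fit was checked on simulated data. Intervals are 95% intervals of the fit and do not cover differences between animals if libraries were not separate animals. Alternatives were a pseudocount of 0.1, no filter, a mean of at least 5 FPKM, equal sums (TPM), median-ratio scaling, limma-voom run on recovered reads, a fit of 2 groups, a replicate block, and fits that left out libraries. Named genes are all members and up to 4 genes of each list with the smallest adjusted p, together with the 10 genes most like the members; single markers were added to describe the tissue. Mep1b, Atoh1, Ang4, Fabp6, Fabp1, Gata4 and the genes given for the acinar, colon and epithelial lists were chosen after their values were seen. The members and lists were chosen with earlier results of these data known.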

Additional observations from a re-analysis of the deposited data

Results flagged for a closer look

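Tff3 in HFD 1 stood apart within its group. It was at 1193 FPKM (1192.71), while the other 3 HFD libraries lay between 1066 and 1069 FPKM, and the gap made up 0.975 of the group's range, above Dixon's critical value for 4 libraries. Of the 16 groups of 4 libraries examined (8 members in HLJDD and HFD), this was the only one, and chance flags about 1 in 20. HFD 1 is also a library with a high mitochondrial share, 32.4%, and it had the lowest Muc2, Clca1, Agr2 and Fcgbp of the HFD libraries; the part of that share was not tested. Without HFD 1, Tff3 in HFD against ND still passed.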

How the results depend on the processing

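Zg16 and Fcgbp in both comparisons with ND, and Tff3 in HFD against ND, passed in all 16 alternatives; the number of members that rose stayed at 3 without a single library in HFD against ND and was 2 to 3 in HLJDD against ND. In HFD against ND, 545 genes rose, against 285 with equal sums, 1426 with limma-voom, 1351 with median-ratio scaling and 1013 without HFD 1 and HLJDD 2; 1241 fell, against 810.0 with a mean of at least 5 FPKM, 694 with the replicate block and 2339 without those 2 libraries. In HLJDD against ND, 441 rose, against 254, 1145, 1011, 280.0 with the replicate block and 1281, and 838 fell, against 444 with the block and 1294 without the 2 libraries. In HLJDD against HFD 1 gene rose without them. The members that rose numbered 4 in HFD against ND with scaling, limma-voom or without the 2 libraries, and 2 in HLJDD against ND with equal sums, no filter or only the 2 groups. With a library left out, 223 to 571 genes rose and 440 to 1219 fell in HFD against ND, 154 to 815 rose and 316 to 1052 fell in HLJDD against ND, and 0 to 1 rose in HLJDD against HFD. The causes were not tested.

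Signs turned only for differences that did not pass. Clca1 in HFD against ND was 0.185 with limma-voom, 0.136 with scaling and 0.0634 without the 2 libraries (-0.195 to 0.0634 leaving libraries out). In HLJDD against ND, Agr2 was 0.214 with limma-voom, 0.146 with scaling and 0.0624 with the replicate block (-0.162 to 0.157), and Spdef was -0.026 without the 2 libraries (-0.026 to 0.111). In HLJDD against HFD, Muc2 was 0.000486 with equal sums (-0.259 to 0.0884), Agr2 ran from -0.333 to 0.0322 and Spink4 from -0.398 to 0.0726. Spdef had no value under the mean of at least 5 FPKM. Same-numbered libraries had deviations with r of -0.264 to 0.339 over 10 pairs, and differently numbered libraries had r of -0.609 to 0.530. With so few libraries per group, these values cannot show whether libraries of the same number share a batch. With the replicate block 3 members rose in each comparison with ND.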
